A study of Mus musculus with 18 samples.

Results

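In muscle of 28-month-old mice, most of the genome's strongly captured 500-bp bins had fallen below 100 normalized counts of methyl-CpG capture (MBD-seq), and the bins described here had not. They were chosen by their measured values: a bin on chromosomes 1 to 19 was called kept when muscle at 2, 20 and 28 months held 100 or more normalized counts and no library reached 1000. The limits were met by 1136 of the 4783931 autosomal bins in the table (0.0237%). They were compared with 21924 lost bins, which held 100 or more counts in 2-m and 20-m muscle and under 100 in 28-m muscle, again with no library at 1000. Kept bins were thus 4.93% of the 23060 bins of both kinds, a share that moves with the limits chosen. Since the muscle values chose the members, they are given below as a description, and no muscle difference between kept and lost bins was tested.

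The animals were female C57BL/6J mice, an inbred wild-type strain, aged 2, 20 and 28 months, with no treatment or allele added. Hindlimb muscle and splenic T cells, taken from the spleen by magnetic sorting, were used for MBD-seq after the DNA of 3 mice had been combined for each age, so that each tissue and age was 1 pool and mice could not be compared. The labels list 1 further muscle library per age as a repeat, the 3 muscle columns do not say which of the libraries they hold, and the others were not analysed here. RNA-seq was made from muscle of 3 mice per age without pooling. Summed over the tables, the recovered counts were 135254786 to 200456498 per MBD-seq library and 33051271 to 121485345 per RNA-seq library. These sums exceed the average read totals that the study gives in its results and in a figure caption. They are not read here as numbers of sequenced fragments, and the reason for the gap was not tested. Promoters of the listed T-cell genes held fewer counts in T cells than in muscle in 23 of 24 genes at 2 months but in only 8 of 24 at 28 months. Promoters of the 30 listed muscle genes held fewer counts in T cells than in muscle in 3 genes at 2 months and in 5 at 28 months, with medians of 12.9 in muscle and 28.5 in T cells at 2 months and of 14.5 and 31.6 at 28 months. All 30 were detected in the muscle RNA.

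In MBD-seq, a methyl-CpG-binding domain on beads retains sheared DNA that carries methylated CpGs, and the retained fragments are counted along the genome. A bin therefore collects more reads when its CpGs are methylated, when it has many of them, and when the same sequence is present in more copies than the reference shows. Mouse chromosomes carry the centromere at one end, and large tandem gene families and satellite DNA lie near many of these ends.

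The sequence differed between the kept and the lost bins, and examples are shown for that reason. Given are the middle 200 bases of the kept bin with the highest 28-m muscle count in each of the 6 largest groups of kept bins (described below), of the kept bin in the imprinted gene Zrsr1, and of the lost bins at Rpl10l and Slc25a31, genes of the germ line. Bases are from the + strand of GRCm38 (mm10), 5′ to 3′, and capitals mark each CpG.
C130026I21Rik, kept, chr1:85281651-85281850: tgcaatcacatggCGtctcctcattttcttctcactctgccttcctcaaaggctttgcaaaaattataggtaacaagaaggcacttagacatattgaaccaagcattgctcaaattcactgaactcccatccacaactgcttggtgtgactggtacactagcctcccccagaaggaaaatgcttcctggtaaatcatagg
Hjurp, kept, chr1:88266151-88266350: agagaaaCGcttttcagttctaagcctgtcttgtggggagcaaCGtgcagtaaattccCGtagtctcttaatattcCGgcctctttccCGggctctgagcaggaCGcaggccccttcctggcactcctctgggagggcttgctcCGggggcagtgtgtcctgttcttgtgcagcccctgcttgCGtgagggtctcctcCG
Sfi1, kept, chr11:3177651-3177850: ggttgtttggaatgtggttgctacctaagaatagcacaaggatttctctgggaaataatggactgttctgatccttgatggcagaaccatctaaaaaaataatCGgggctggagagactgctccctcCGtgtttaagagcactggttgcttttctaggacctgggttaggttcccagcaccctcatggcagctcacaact
Sp110 and Sp140, kept, chr1:85591151-85591350: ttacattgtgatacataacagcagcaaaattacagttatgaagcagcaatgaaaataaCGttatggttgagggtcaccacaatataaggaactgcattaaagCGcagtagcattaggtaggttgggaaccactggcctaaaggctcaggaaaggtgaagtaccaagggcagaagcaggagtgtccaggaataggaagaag
chromosome 8 locus, kept, chr8:20267651-20267850: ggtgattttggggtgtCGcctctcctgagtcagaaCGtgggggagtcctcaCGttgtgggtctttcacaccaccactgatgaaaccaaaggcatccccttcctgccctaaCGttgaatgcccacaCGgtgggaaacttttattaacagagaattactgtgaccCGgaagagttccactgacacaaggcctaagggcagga
start of chromosome 4, kept, chr4:3080651-3080850: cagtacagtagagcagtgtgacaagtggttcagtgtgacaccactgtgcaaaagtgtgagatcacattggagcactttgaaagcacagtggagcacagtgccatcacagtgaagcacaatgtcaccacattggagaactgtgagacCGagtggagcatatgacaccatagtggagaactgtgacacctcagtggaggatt
Zrsr1 in Commd1, kept, chr11:22973151-22973350: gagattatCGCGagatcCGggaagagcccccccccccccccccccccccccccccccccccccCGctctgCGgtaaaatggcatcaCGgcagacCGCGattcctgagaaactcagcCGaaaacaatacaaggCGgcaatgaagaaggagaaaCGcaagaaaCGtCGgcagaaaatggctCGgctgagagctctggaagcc
Rpl10l, lost, chr12:66284151-66284350: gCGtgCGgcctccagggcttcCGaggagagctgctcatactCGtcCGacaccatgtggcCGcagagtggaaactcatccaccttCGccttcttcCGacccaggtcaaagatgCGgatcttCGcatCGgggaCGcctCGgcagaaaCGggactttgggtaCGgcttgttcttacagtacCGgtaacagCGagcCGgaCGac
Slc25a31, lost, chr3:40708651-40708850: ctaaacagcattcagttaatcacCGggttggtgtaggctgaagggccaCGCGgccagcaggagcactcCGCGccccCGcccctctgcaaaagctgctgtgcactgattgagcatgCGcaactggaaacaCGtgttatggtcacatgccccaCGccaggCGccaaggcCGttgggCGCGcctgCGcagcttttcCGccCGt
The middle of the kept bin at C130026I21Rik contained 1 CpG (5 in the whole bin), and that of the bin in Sfi1 contained 2 (3 in the whole bin). The lost bin at Rpl10l had 39 CpGs and that at Slc25a31 had 31, whereas the kept bin of Zrsr1 had 23. Despite its 5 CpGs, the bin at C130026I21Rik held 378, 472 and 514 normalized counts in muscle of 2, 20 and 28 months. The Rpl10l bin held 201.0, 132 and 51.6 counts at the same ages.

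At 2, 20 and 28 months the muscle median of the kept bins was 235, 213 and 152 normalized counts (quartiles at 28 months 117 and 222). Lost bins had 139, 112 and 52.3. The median over the whole of the autosomes was 8.19, 9.26 and 13.4. On the deposited scale the count of kept bins changed by a median factor of 0.692 between 2 and 28 months, and 226 of them (19.9%) were higher at 28 than at 2 months. The median factor of the lost bins was 0.374. Scaling the libraries to the same sum moved the 28-m to 2-m ratio of every muscle bin by 0.44 on the log2 scale, after which the median factor of the kept bins was 0.94 and 506 of them were higher at 28 months. Of the muscle sums, 8.45% at 2 months and 2.99% at 28 months came from 1 bin, chr2:98667001-98667500. Its part in the scaled values was not tested. Near the limit the sets graded into each other. The 97 kept bins at 100 to 105 counts in 28-m muscle had a 2-m median of 176, and the 100 lost bins at 95 to 100 counts had a 2-m median of 200.6.

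**Figure D1:**
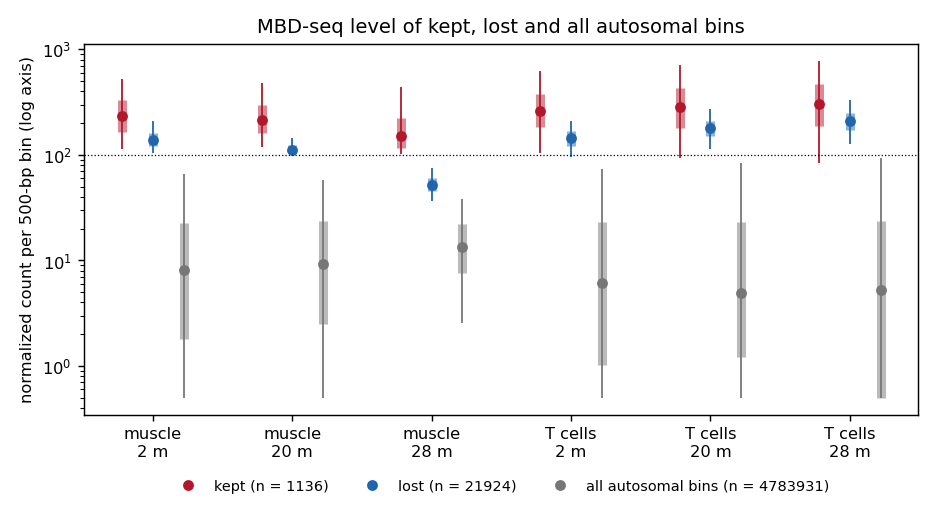
Normalized MBD-seq count per 500-bp bin (log axis) in the 3 muscle and 3 T-cell pools (m, months) for kept, lost and all autosomal bins. Points are medians, thick bars quartiles, and thin bars the 5th to 95th percentiles over bins, drawn no lower than a count of 0.5. The dotted line is the limit of 100, which the kept bins met in muscle by choice, and the kept median in muscle fell from 235 to 152 between 2 and 28 months.

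Kept bins had fewer CpGs than lost bins and more than the autosomes at large. They contained a median of 7 CpGs (quartiles 4 and 10), compared with 18 (14 and 24) in lost bins and 3 in all autosomal bins. With bins chosen after scaling to the same sum, the kept minus lost difference was -6 in place of -11. Of the kept bins, 445 (39.2%) had 5 CpGs or fewer, which was true of 1.05% of the lost bins and 75.1% of all autosomal bins, and 19 kept bins had no CpG at all. The kept median was below the lost median in 18 of 19 autosomes. GC content was 47.8% in kept and 52.2% in lost bins. The count per CpG in 28-m muscle, whose count chose the sets, had a median of 24.5 in kept bins and 2.95 in lost bins. In T cells it was 36.2 and 7.98 at 2 months and 39.7 and 11.3 at 28 months.

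The share of strongly captured bins that were kept was lower at each step up in CpG content. Among high bins with 0 or 1 CpG, 81.2% were kept, and the share was 64.1% with 2 to 5 CpGs, 27.4% with 6 to 10, 1.63% with 11 to 20 and 0.687% with 21 or more. As a description of the values that chose them, in kept bins with 2 to 5 CpGs the median count was 222 in 2-m and 175 in 28-m muscle, while in kept bins with 21 or more CpGs it was 281 and 116, close to the limit of 100. Bins that rose from 2 to 28 months had a median of 5 CpGs, and bins that fell had 8.

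**Figure D2:**
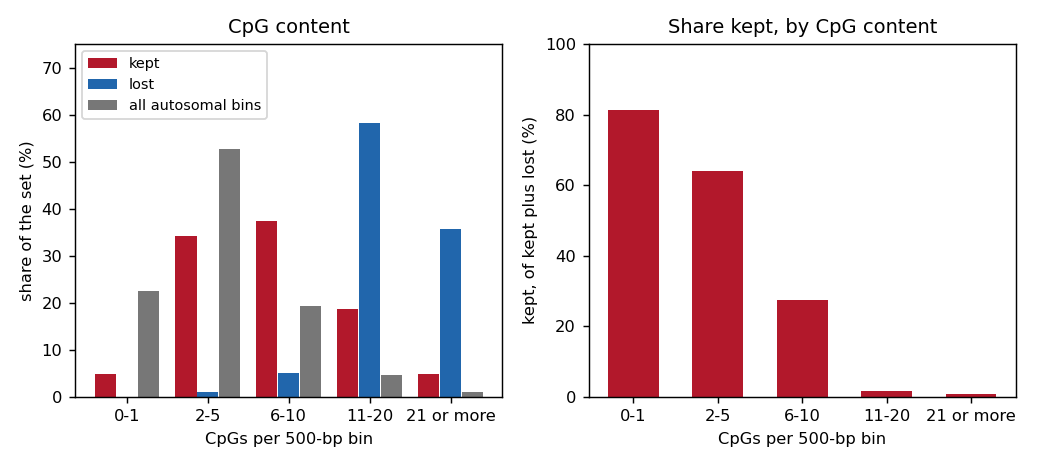
Left, share of kept, lost and all autosomal bins (%) by the number of CpGs in the bin. Right, kept bins as a share of kept plus lost bins (%) in the same classes, which fell from 81.2% with 0 or 1 CpG to 0.687% with 21 or more.

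Copies of the kept sequences lay mostly close by. Each 31-base word of a bin was counted in the whole reference. In 631 kept bins (55.5%) at least 50% of the words occurred again within 1 Mb, compared with 25.5% of lost bins. Widely repeated sequence was the less common kind: the median word occurred 100 times or more in 65 kept bins (5.72%) and in 32.1% of lost bins. Only 88 kept bins (7.75%) consisted of words that occurred once, against 36.0% of lost bins. At least 50% of the bases were masked as repeats in 32.7% of kept, 47.6% of lost and 24.0% of all autosomal bins. How many copies the sampled mice carried was not tested.

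By place, 144 kept bins (12.7%) had their centre within 1 kb of a start site, 11.4% in another exon, 37.1% in an intron and 38.8% between genes. The lost bins were at start sites in 6.47% and in exons in 19.2%, and all autosomal bins in 4.57% and 3.81%. Start sites in the 20 largest groups made up most of these kept promoter bins (112), and outside them the share was 9.36%. Chromosomes 1, 4, 8, 11 and 17 carried 781 kept bins, 68.8% of the set on 28.4% of the autosomal length, whereas 30.1% of the lost bins lay there. The first 1 Mb of sequenced bases, next to the centromere, held 214 kept bins (18.8%) but 1.26% of the lost bins and 0.788% of all autosomal bins. Of those 214 bins, 75 were on chromosome 11, 52 on chromosome 4, 36 on chromosome 17 and 26 on chromosome 16. No kept bin lay in this first stretch on chromosome 1, which held 314 kept bins farther along.

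Kept bins were strongly clustered. A directly neighbouring bin was also kept for 672 of them (59.2%), and 27.8% of lost bins had a lost neighbour, although the lost set was much the larger. Without the 20 largest groups of kept bins, described below, the kept share was 35.7%. Runs of 3 or more contained 36.3% of kept and 7.48% of lost bins, and the longest run was 23 kept bins (11.5 kb) and 11 lost bins. The bins beside a kept bin had a median of 128 to 130 counts in 2-m muscle, and bins 5 kb away still had 36.4 to 38.7. Around lost bins the median was 70.0 to 71.0 in the bins beside them and 18.2 at 5 kb. In 28-m muscle the corresponding values at 5 kb were 50.4 to 53.5 around kept and 19.12 to 19.8 around lost bins.

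When kept bins no more than 100 kb apart were joined, they formed 210 loci, of which 136 were single bins. The 10 largest contained 634 kept bins (55.8%) and the 20 largest 794 (69.9%), on 2.95 Mb or 0.12% of the autosomes. The 20 largest loci of lost bins, joined in the same way, held 3.97% of that set. Outside its 20 largest loci the kept set was 342 bins with a median of 8 CpGs and of 126 counts in 28-m muscle. Inside them the medians were 6 CpGs and 164 counts.

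**Figure D3:**
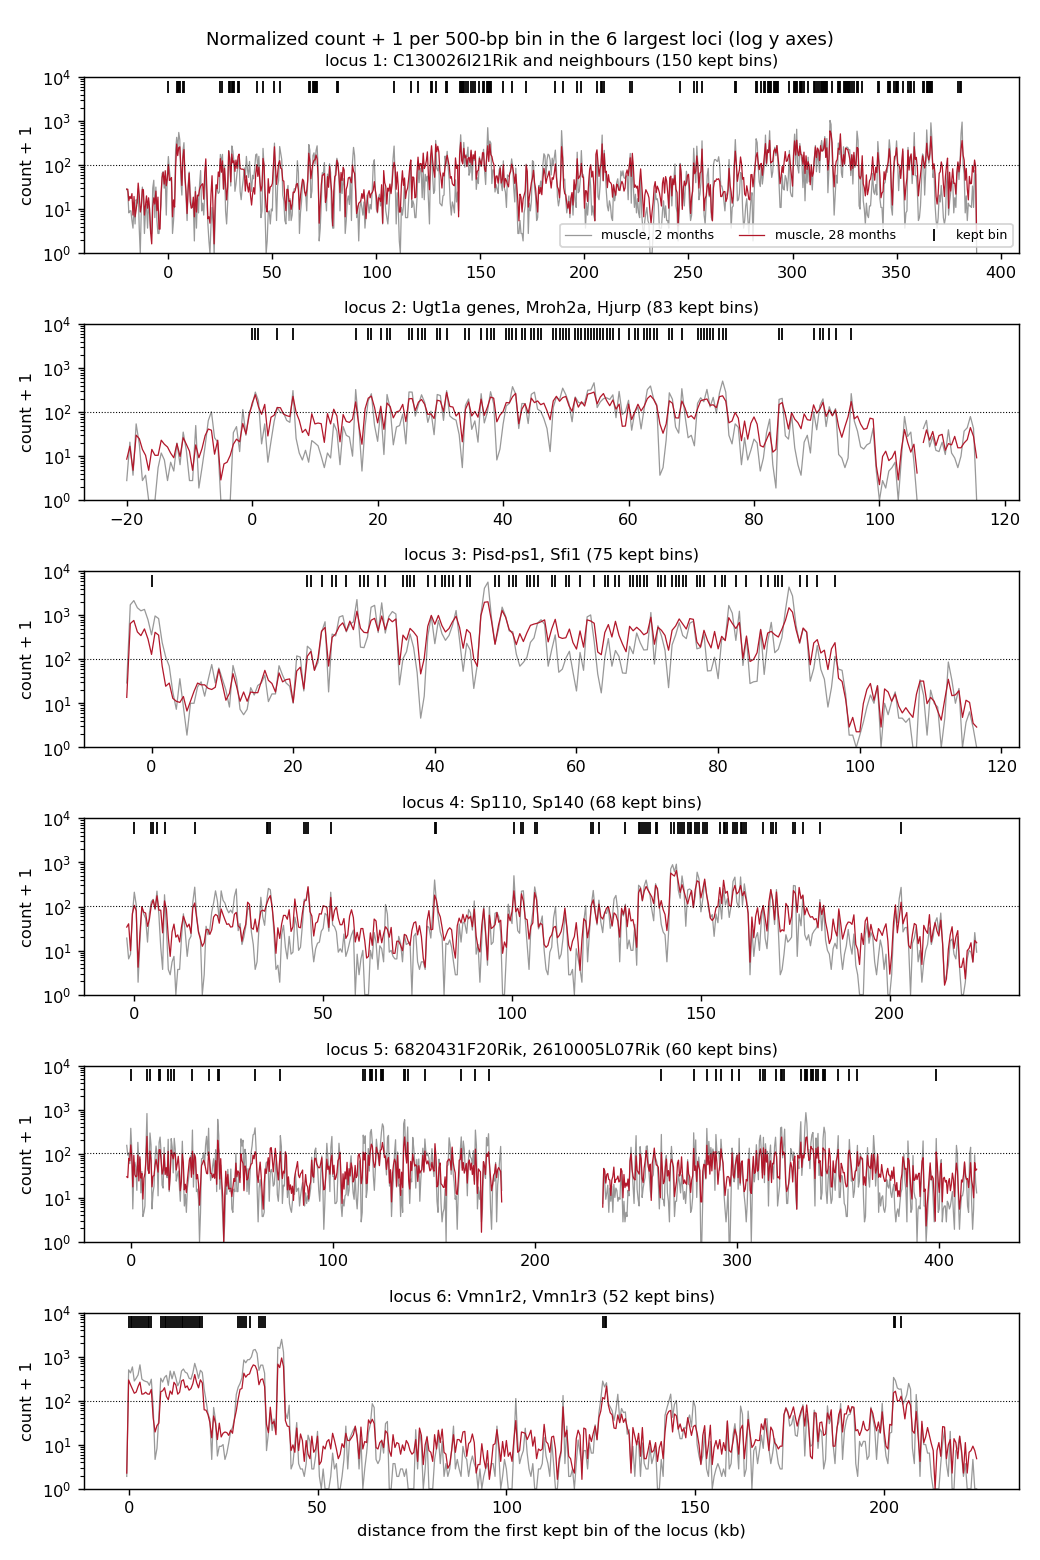
Normalized MBD-seq count plus 1 (log axis) per 500-bp bin in 2-m (grey) and 28-m (red) muscle along the 6 largest loci and up to 20 kb on either side, against the distance in kb from the first kept bin. Black ticks are kept bins, the dotted line is the limit of 100, and gaps are bins not in the table. At Hjurp and Sfi1 both traces stand above their flanks (28-m medians of 107 and 351 inside, 17.2 and 11.5 within 20 kb outside), and the 28-m trace does not drop as low as the 2-m trace between the peaks.

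The largest locus, chr1:84958501-85340000, had 150 kept bins of 763 and spans A530032D15Rik, C130026I21Rik and a series of predicted genes, including Gm38510. Its kept bins had medians of 206, 196 and 172 counts in 2-m, 20-m and 28-m muscle and a median of 6 CpGs. Close to it, chr1:85449001-85652500 had 68 kept bins over Sp110 and Sp140, which encode interferon-inducible nuclear body proteins, with medians of 230, 218 and 197. In both, the median word of a kept bin occurred 8 times in the genome, and in the median kept bin 78.2% and 79.1% of the words recurred within 1 Mb. Of the kept bins, 45 and 21 were higher at 28 than at 2 months.

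A locus without such copies in the reference lay at chr1:88211501-88307500. It contained 83 kept bins of 192 from the Ugt1a cluster, whose genes encode UDP-glucuronosyltransferases, through Mroh2a to Hjurp, which encodes the chaperone of the centromeric histone, and the start of Trpm8, which encodes a cold-sensing channel. Its kept bins had medians of 201.0, 203 and 174 counts in muscle and of 249, 262 and 295 in T cells, and the median word occurred once. The level was bounded: all 192 bins had a median of 72.8 counts in 2-m muscle and 107 in 28-m muscle, and the 79 bins within 20 kb outside had 11.8 and 17.2. The longest run here was 13 bins in Hjurp, chr1:88263001-88269500.

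Sfi1, which encodes a centrin-binding protein of the centrosome, and the pseudogene Pisd-ps1 formed a locus at chr11:3103001-3200000 with 75 kept bins of 194. On the deposited scale it was the 1 locus of the 10 largest whose kept median was higher in 28-m than in 2-m muscle, and scaled to the same sum 4 of the 10 were, with ratios of 2.36 here and 1.14 to 1.18 in the 3 loci of chromosome 1. Its kept medians were 255, 324 and 442 counts at 2, 20 and 28 months, and 65 of the 75 bins were higher at 28 than at 2 months. In T cells the medians were 376, 286 and 245. A further 39 of its bins had 1000 or more counts in a library and were outside the set. Its 20 bins with 0 or 1 CpG had medians of 47.3, 60.6 and 165 counts in muscle, whereas such bins of all autosomes had 1.82, 1.68 and 5.74. In the locus of Hjurp, 17 bins of this kind had 6.37, 6.74 and 28.7 counts.

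Several of the other large loci lay in gene families or near the start of a chromosome. The locus at chr8:20259501-20658500 had 60 kept bins around the genes 6820431F20Rik and 2610005L07Rik, and its median fell from 271 to 123 counts between 2-m and 28-m muscle. At chr4:3050001-3255000, near the vomeronasal receptor genes Vmn1r2 and Vmn1r3, 52 kept bins had a median of 3 CpGs and included the longest run, the 23 bins of chr4:3058501-3070000 with medians of 375, 252 and 196 counts. A locus of 46 bins at chr4:147176001-147528500 lay among zinc finger genes (Zfp978, Zfp991, Zfp982, Zfp988). A locus at chr6:47652501-47773500, with 8 predicted genes such as Gm40365 and the small RNA gene Rn4.5s, held 37 kept bins, which had 201.0, 205 and 127 counts in muscle and 416, 523 and 656 in T cells. The locus of Pisd-ps2 at the start of chromosome 17 had 35 bins, that of Smok2a and Smok2b, which encode sperm motility kinases, 28, and that of Duxf3, a double homeobox gene, 15. Away from both, at chr12:20226501-20234500, where no gene is annotated and the median word occurred once, 15 of 16 bins were kept, and the median was 359, 370 and 203 counts in muscle with 15 CpGs.

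T-cell values were used in choosing the bins only through the upper limit of 1000. Kept bins had medians of 258, 282 and 305 normalized counts in T cells at 2, 20 and 28 months, and lost bins had 144, 179 and 208. The kept median was higher in 19 of 19 autosomes at 2 and 20 months and in 18 of 19 at 28 months. At 28 months the log2 ratio of the kept to the lost median was 0.55 (SD over autosomes 0.41, n = 19), which is a spread over the genome and not over mice. It was 0.24 with an upper limit of 500 in place of 1000 and 0.30 with a lower limit of 150. Since each age was 1 pool, no test between ages was possible. The 28-m T-cell values come from the library in which promoters of T-cell genes were lower than in muscle in only 8 of 24 genes, and the part of this in the values below was not tested.

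This difference depended on the level at which bins started. In bins with 100 to 150 counts in 2-m muscle, the 28-m T-cell median was 144 in kept (n = 207) and 186 in lost bins (n = 13641), so the order was reversed, as it was at 150 to 200 counts (217 and 238). At 200 to 300 counts the medians were 306 and 301. Above this, kept bins were higher, with 462 and 400 at 300 to 500 counts and 722 and 582 at 500 to 1000 counts, although only 5 lost bins were in the last class. In T cells of 2-m mice the kept median was higher in all 5 classes, from 142 against 133 to 614 against 322. In T cells of 20-m mice it was lower at 100 to 150 counts (139 in kept and 163 in lost bins) and higher in the other classes.

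**Figure D4:**
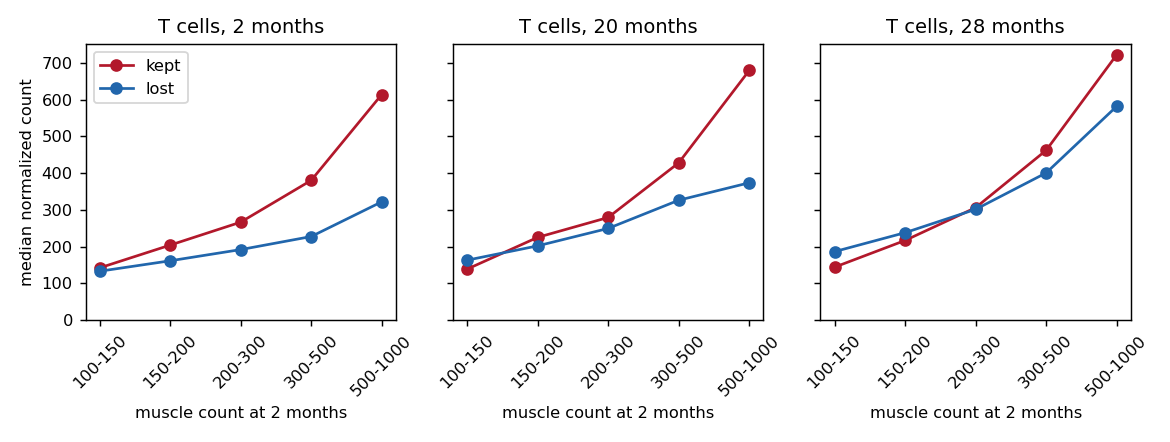
Median normalized MBD-seq count of kept (red) and lost (blue) bins in T cells at 2, 20 and 28 months, by the bin's count in 2-m muscle. At 28 months kept bins lay below lost bins in the lowest class (144 and 186) and above them in the highest (722 and 582).

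From 2 to 28 months the T-cell count of kept bins changed by a median factor of 1.14, and that of lost bins by 1.44. Scaled to the same sum, the median log2 change in T cells was -0.13 in kept bins, opposite to the 0.19 of the deposited scale, and 0.20 in place of 0.52 in lost bins. Past a factor of 1.5, 141 kept bins were higher at 28 months (12.4%), where the share of all autosomal bins with a T-cell mean of at least 10 counts was 22.4%, and 40.1% of lost bins were. That background begins at 10 counts, whereas kept bins had T-cell medians of 258 to 305, and shares at a matched level were not compared. In the other direction 73 kept bins were lower (6.43%), where the share of all such bins was 14.4% and that of lost bins was 0.119%. Of these 73 bins, 32 were in the Sfi1 locus, 18 in the locus of C130026I21Rik and 10 in that of Sp110. Muscle exceeded T cells at 28 months in 248 of 1136 kept bins, although the choice of kept bins required a high 28-m muscle count. It did so in 43 of 21924 lost bins, whose choice required 28-m muscle below the lower limit. Their 28-m T-cell lower quartile was 171 counts, so the choice itself kept this number small. The kept and lost shares are therefore not a comparison of the sets. Among all 4783931 autosomal bins it was 3278025, at low 28-m medians of 13.4 in muscle and 5.29 in T cells. Of the 248, 61 were in the Sfi1 locus, 55 in the locus of C130026I21Rik and none in that of Gm40365. The Smok2a locus was on the other side, with 16 of 28 bins past 1.5-fold higher in T cells of 28-m mice.

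Among kept bins that were under 50% masked and whose 31-base words were all single in the genome, the 10 with the highest 28-m muscle count included 7 at Hjurp, Mroh2a and the Ugt1a genes. The first was an exonic bin of Sfi1, chr11:3187001-3187500, with 311, 354 and 338 counts in muscle and 429, 348 and 330 in T cells. The second, chr1:88266001-88266500 in an exon of Hjurp, had 468, 471 and 287 counts in muscle and 620, 816 and 839 in T cells. A promoter bin of Sfi1, chr11:3199501-3200000, had 116, 147 and 239 counts in muscle and 95.4, 88.8 and 70.1 in T cells. Each value is from 1 pool, and the bin was picked by its 28-m muscle count. The bin chr4:28177001-28177500, in an intron of the uncharacterized gene Gm52725, had 342, 365 and 241 counts in muscle, although it had 1 CpG and a GC content of 30.4%.

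Genes of the listed families were compared with all RefSeq genes, of which 0.171% had a kept bin within 1 kb of a start and 0.443% had one in the body. Of 36 imprinted genes on autosomes, 1 had a kept bin near a start (2.78%) and 2 had one in the body (5.56%). The first was Commd1, whose intron holds the paternally expressed Zrsr1, and the bin chr11:22973001-22973500 lay in Zrsr1 too. It held 172, 171 and 113 counts in muscle and 238, 298 and 321 in T cells. Of 30 germline genes none had a kept bin near a start, whereas 14 (46.7%) had a lost one, among them Dazl, Sycp3, Piwil2 and Brdt. A lost bin near a start was found in 2.81% of all RefSeq genes. One germline gene, Tdrd1, had a kept bin in the body (3.33%). Kept bins were in the body of 9 of 409 Zfp genes (2.20%) and of 2 of 250 Vmn2r genes (0.80%), both pseudogenes. Of the 9 Zfp genes 8 lay in a cluster on chromosome 4. Lost bins were also in the body of 35.2% of Zfp genes and 27.8% of imprinted genes, against 14.9% of all genes. No olfactory receptor, Hox or keratin gene of 1419, 45 and 113 had a kept bin in its body or near a start. Among muscle genes (30), T-cell genes (24) and genes of DNA methylation (14), none had a kept bin at a start or in the body.

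RNA was compared for the genes at kept bins to ask whether their muscle transcripts changed in the ages over which other bins were lost. In bulk muscle, fewer cells of a type and less RNA per cell cannot be told apart. Kept bins lay within 1 kb of a start of 80 RefSeq genes and in the body of 207. Of these, 19 and 106 were in the RNA table, and 9 and 60 had a mean of at least 10 normalized counts and were tested. None of the 9 genes with a kept bin near a start passed the test in either comparison (limma, Benjamini-Hochberg adjusted over 13183 genes). Of all genes tested, 7.53% were higher and 6.24% lower at 28 than at 2 months, and 0.212% higher and 0.167% lower at 28 than at 20 months. Among the 9 genes, 0 had an unadjusted p under 0.05 against 2 months and 1 had one against 20 months, where 28.1% and 10.6% of all genes tested did, and edgeR and DESeq2 on the recovered reads called 0 as well.

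Most of these transcripts were scarce. Sp110 had 86.9, 91.6 and 28.9 normalized RNA counts in the 3 mice of 2 months, 59.8, 30.4 and 44.7 at 20 months, and 89.2, 76.0 and 45.3 at 28 months. The 3 groups overlapped, and the log2 difference between 28 and 2 months was 0.13 (SE 0.44). Sp140 had 40.1, 24.7 and 39.0 counts at 2 months, 24.3, 13.5 and 37.0 at 20 months, and 38.0, 38.7 and 60.4 at 28 months, a log2 difference of 0.92 (SE 0.42) between 28 and 20 months with an adjusted p of 0.469. The sequence of these genes recurs nearby, so their RNA values are uncertain. Sfi1 was the example with bins that rose: its RNA was 116, 183 and 98.2 counts at 2 months, 157, 75.9 and 151 at 20 months, and 152, 156 and 157 at 28 months. The 28-m values lay within the range of the 2-m values (log2 difference 0.27, SE 0.29). Hjurp had 37.9, 40.5 and 19.5 counts at 2 months and 20.9, 33.1 and 11.3 at 28 months (-0.62, SE 0.54). Commd1, a regulator of copper and NF-kB, was abundant and close between ages, with 1246 to 1316 counts at 2 months and 1183 to 1327 at 28 months. Of the 10 genes with the most kept bins in the body, Mroh2a had at most 2.23 counts and A530032D15Rik at most 16.99 in any library, and neither was tested.

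**Figure D5:**
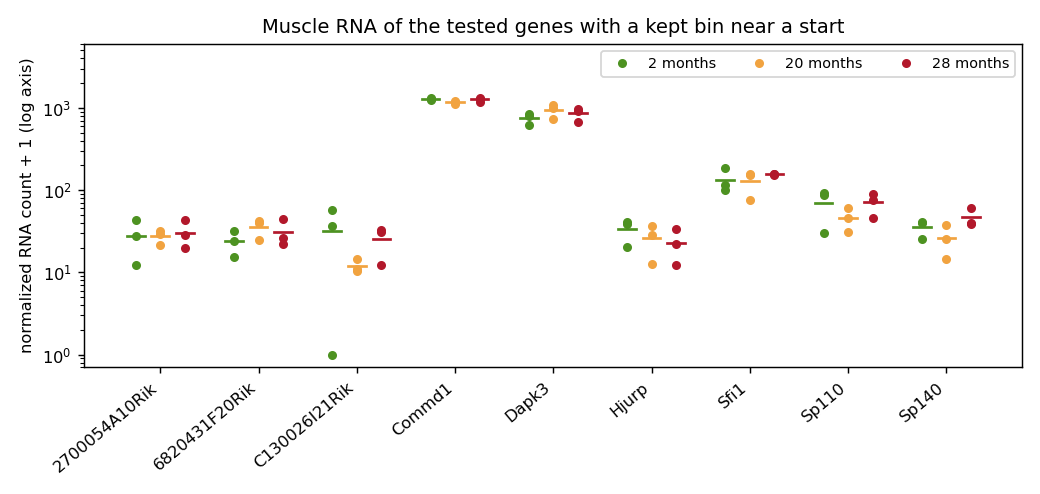
Normalized RNA count plus 1 (log axis) in muscle for the 9 tested genes with a kept bin within 1 kb of a start. Each point is 1 mouse and each line the mean of 3 mice of 2, 20 or 28 months. None of the 9 passed the test, and in Sfi1 the 28-m mice (152 to 157) lay within the range of the 2-m mice (98.2 to 183).

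Of the 60 genes with a kept bin in the body, 6 passed the test between 28 and 2 months, 4 of them higher (6.67%) and 2 lower (3.33%), against 7.53% and 6.24% of all genes tested. The genes with a lost bin in the body were called in 8.82% and 5.82% of 3696. The 6 genes are named because the count is small, after their values were seen. Tiam2, which encodes an activator of the GTPase Rac, had 210, 238 and 199 counts at 2 months, 433, 395 and 320 at 20 months, and 588, 454 and 589 at 28 months. Every 28-m mouse was above every 20-m mouse and these above every 2-m mouse, and the log2 difference between 28 and 2 months was 1.32 (SE 0.15, limma adjusted p = 0.000173). Its kept bin, chr17:3379501-3380000 in an intron, held 212, 187 and 147 counts of MBD-seq in muscle.

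Stam2, which encodes an endosomal sorting protein, rose by 0.56 (SE 0.12), from 468 to 500 counts at 2 months to 598 to 799 at 28 months, and had 5 kept bins in a repeated stretch that it shares with Gm46741. Stxbp5, which encodes the secretion regulator tomosyn, rose by 0.41 (SE 0.11), and Snd1, which encodes a nuclease, by 0.28 (SE 0.07). Col26a1, a collagen gene, had 40.1, 70.5 and 49.8 counts at 2 months, 3.74, 3.37 and 6.54 at 20 months, and 15.2, 6.91 and 9.44 at 28 months, a log2 difference of -2.27 (SE 0.55) between 28 and 2 months. Zfp180, a zinc finger gene with 2 kept exonic bins, had a log2 difference of -0.40 (SE 0.10). The groups of 28 and 2 months did not overlap in any of these 6 genes, which were picked by the test on the same values, and they did not overlap in 30.3% of all genes tested. Fibroblast markers moved with age in the same libraries: 3 of 6 were lower at 28 than at 2 months, and their summed level was 51087 to 106411 counts at 2 months and 21815 to 29894 at 28 months. Of the muscle markers 7 of 30 were higher and 5 lower, 1 of 7 tested T-cell markers was lower (summed level 488 to 909 counts at 2 months and 552 to 696 at 28 months), 1 of 4 fat markers was lower, and of the macrophage (6), endothelial (3) and B-cell (4) markers none passed the test in either direction. The part of these cells in the 6 results was not tested. Scaled to the same sum, 1 of the 60 genes passed, which was Tiam2, and over all genes 417 were called in place of 1816. The third library of each age had the lowest sum on the normalized scale. At 28 months it had 33051271 reads with a size factor of 0.530, and the first library had 49831490 with 0.527. Equal sums therefore shifted the third library against the others of its age, and the part of this in the lower counts was not tested. Without the third mouse of 2 months or the third of 28 months 3 passed. Between 28 and 20 months none of the 60 genes was called by limma, although 11 (18.3%) had an unadjusted p under 0.05 and DESeq2 called 2 (3.33%), against 10.6% and 1.72% of all genes tested. With the replicate number as a further term, limma called 9 of the 60 against 2 months and 1 against 20 months. Of all 13183 genes it then called 2523 and 143.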

How the data were processed

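MBD-seq of pooled muscle and T-cell DNA and RNA-seq of muscle were analysed from 2 deposited tables. Both hold a signal: the authors divided reads per 500-bp bin or per refSeq gene by a size factor that DESeq2 gave for that library. Before counting, the authors trimmed with Trim Galore, aligned to mm10 with Bowtie2 (MBD-seq) or Hisat2 (RNA-seq, for which the labels list TopHat), and counted with bedtools or htseq-count, and alignment of reads to repeated sequence is fixed in the table. All values (100%) were whole multiples of 1 step per library within 0.1 reads, which gave back whole counts. No column of per-sample values was left unused.

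The kept bins, the comparison and the gene lists were chosen with earlier results of these data known. CpGs, masking and 31-base words were read from the GRCm38 sequence, and genes from its RefSeq annotation, of which 20593 autosomal symbols matched the 23425 of the RNA table. Promoter bins had their centre within 1 kb of a start. Loci joined kept bins no more than 100 kb apart, a distance set after seeing the data. T-cell folds were taken on the count plus 1, and bins with a T-cell mean of at least 10 were the background.

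RNA was tested with limma 3.58.1 (R 4.3.3; limma-trend, 9 libraries, age as the only term) on log2 of the normalized count plus 1 for the 13183 genes with a mean of at least 10 counts. Fold changes are on that scale, which understates those of low genes. On counts simulated for 28 against 2 months, 98.0% of 196 genes changed 4-fold and 12 unchanged ones among 13163 were called. Replicate numbers were not treated as pairs: between libraries of equal number, Pearson r over genes exceeded 0.1 in each pair only for number 3 (0.111 to 0.163). Alternatives were other limits, scalings, pseudocounts and filters, bins without masked or repeated sequence, edgeR 4.0.16, DESeq2 1.42.0, the replicate number as a block, and leaving out each library. Leaving out the 20 largest loci, restricting both sets to bins with 10 or fewer CpGs, and the count for gene bodies under the alternatives were added after seeing the data.

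Named by rule were the 10 kept bins with the highest 28-m muscle value among bins under 50% masked with single words, the 5 longest runs, the 5 largest rises and falls among called genes with a kept bin near a start, the 10 genes with the most kept bins in the body, and listed genes with a kept bin near a start. RNA of Gm38510, Gm7592 and Zfp978 was not analysed here.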

Additional observations from a re-analysis of the deposited data

Results flagged for a closer look

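On the X chromosome, which was outside the comparison, 37 bins met the limits of the kept bins and 1412 those of the lost bins, so that 2.55% were kept. The kept X bins had medians of 167, 181 and 131 normalized counts in muscle at 2, 20 and 28 months and of 273, 296 and 264 in T cells. A further 361 autosomal bins held 100 or more counts in muscle at every age but 1000 or more in at least 1 library, 135 of them in T cells alone. Their median in 28-m muscle was 871 counts, and 100 of them lay directly beside a kept bin.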

How the results depend on the processing

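The MBD-seq sets rest on 1 pool per age, so no spread between mice is known, and a count limit on a scaled library moves with the scale. The share of kept among high bins was 4.93%. It was 35.0% with a lower limit of 150, 3.14% with 80, 3.65% with an upper limit of 500, 8.28% with libraries scaled to the same sum, 6.24% over bins under 50% masked and 1.10% over bins of single 31-base words. In the alternatives chosen after seeing the data it was 1.55% without the 20 largest loci and 39.1% over bins with 10 or fewer CpGs. The share of kept bins with a kept neighbour, 59.2%, was 52.2% with a limit of 80, 48.3% with an upper limit of 500, 47.6% when scaled to the same sum, 55.1% when under 50% masked, 69.3% for single words and 35.7% without the 20 largest loci. Kept bins had a median of 11 CpGs fewer than lost bins (-11), and the difference was -7 with a lower limit of 80, -6 when scaled to the same sum and -4 among bins with 10 or fewer CpGs. The log2 ratio of the kept to the lost T-cell median at 28 months (0.55) was -0.37 and -0.13, thus reversed, in bins with 100 to 150 and 150 to 200 counts in 2-m muscle, and 0.022 at 200 to 300. It was 0.24 with an upper limit of 500 and 0.30 with a lower limit of 150. The T-cell change of kept bins was -0.13 on the scale of equal sums. The cause of these differences was not tested.

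For RNA, the count of called genes with a kept bin near a start was 0 under every alternative run, and with gene bodies in its place it was 6 between 28 and 2 months. For gene bodies, evaluated after seeing the data, the count of 6 was 1 when scaled to the same sum and 3 to 6 without 1 library. With the replicate block it was 9 between 28 and 2 months and 1 in place of 0 between 28 and 20 months, where DESeq2 gave 2. Of 16 alternatives, Tiam2 passed in 16, Stam2 in 15, Zfp180 in 13, Col26a1 in 12, and Snd1 and Stxbp5 in 11, and none reversed. Over all genes, 1816 were called between 28 and 2 months (417 to 2523 over the alternatives) and 50 between 28 and 20 months (14 to 227).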
